A study of Mus musculus with 15 samples.

Results

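The 9 B cell identity genes Ms4a1, Cd79a, Cd79b, Pax5, Ebf1, Blk, Bank1, Cr2 and Fcer2a were taken by name from the 55416 gene identifiers of the count tables, and all 9 were found, each under 1 Ensembl identifier. Whole blood RNA from 15 C57BL/6 mice had been sequenced, 1 library per mouse. The untreated group held 5 mice with neither antibody nor surgery, the early ND group 5 mice given 2 doses of αCTLA-4 and an early neck dissection (ND), and the late ND group 5 mice given the same antibody and a late ND. The labels of all 3 groups, untreated mice included, give the same transplantation of 4MOSC1 cells, a mouse oral squamous carcinoma line, into the tongue and the same 10 days of growth, while the study's text does not say whether the untreated mice carried tumors. By the study's methods, transplanted mice were females a few weeks old. Its figure legend places blood sampling before the late ND and its text after it. The 10 days of growth in the labels match the sampling day of the legend. Below, "late ND" and "after late ND" name the group, whichever holds. Early ND mice had received both antibody and surgery, so the 2 cannot be told apart in their comparison with untreated mice. If late ND mice were bled before their surgery, they had received the antibody alone.

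B cells recognize antigen through a membrane immunoglobulin that signals by the paired chains encoded by Cd79a and Cd79b. The transcription factors Ebf1 and Pax5 specify and hold the B cell fate and switch on many of the other genes. Blk, a Src family kinase, and Bank1, a scaffold protein, act just below the receptor, and Ms4a1 encodes the surface protein CD20. Cr2 (complement receptor CD21) and Fcer2a (the low-affinity IgE receptor CD23) are surface receptors of mature B cells. In blood of mice, B cells are a major lymphocyte class, and in whole blood RNA a lower level of these genes can mean fewer B cells or less of the RNA per cell, which cannot be told apart here.

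The starts of 3 of the genes are shown because Cd79a and Cd79b encode the chains of 1 receptor from different chromosomes and Fcer2a has a TATA box sequence close to its start. Each window runs from 250 bases before to 50 bases after the start of the canonical GENCODE transcript and is read 5′ to 3′ on the gene's strand of GRCm39, at chr7:24596490-24596789 (plus strand) for Cd79a, chr11:106205539-106205838 (minus) for Cd79b and chr8:3744134-3744433 (minus) for Fcer2a. Capitals mark matches to the motifs named after the sequences.
Cd79a: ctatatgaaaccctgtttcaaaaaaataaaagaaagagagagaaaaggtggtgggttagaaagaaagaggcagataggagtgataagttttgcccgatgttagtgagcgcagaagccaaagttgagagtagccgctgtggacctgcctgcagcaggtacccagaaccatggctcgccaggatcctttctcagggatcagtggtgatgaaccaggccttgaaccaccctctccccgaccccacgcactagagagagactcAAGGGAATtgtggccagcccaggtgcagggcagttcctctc
Cd79b: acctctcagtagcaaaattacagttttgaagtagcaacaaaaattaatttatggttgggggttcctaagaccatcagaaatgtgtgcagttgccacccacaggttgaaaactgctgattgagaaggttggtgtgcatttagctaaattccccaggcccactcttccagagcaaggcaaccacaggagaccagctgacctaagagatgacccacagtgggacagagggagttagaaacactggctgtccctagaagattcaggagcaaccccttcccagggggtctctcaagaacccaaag
Fcer2a: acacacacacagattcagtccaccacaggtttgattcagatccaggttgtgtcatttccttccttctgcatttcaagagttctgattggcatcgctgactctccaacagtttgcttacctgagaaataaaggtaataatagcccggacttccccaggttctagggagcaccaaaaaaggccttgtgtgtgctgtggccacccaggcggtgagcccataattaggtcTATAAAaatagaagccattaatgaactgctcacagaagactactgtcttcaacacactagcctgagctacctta
Both strands of such windows of 21770 protein-coding genes were searched. The EBF palindrome, TCCC and GGGA parted by any 2 bases, was in 0 of the 9 members' windows and 1.05% of all windows. The octamer ATTTGCAT was in 0 of 9 and 1.63%, and its core TTTGCAT in 2 of 9, Ms4a1 and Ebf1, and 4.55%. One arm of an EBF site, AAGGGAAT, was found for Cd79a only among the 9, from base 10 to base 17 after the start, and in 1.08% of all windows. TATAAA was found for Fcer2a, 24 to 19 bases before the start, and for Bank1, and in 13.2% of all windows. The arm was added after the Cd79a window had been read, and a match is a description of letters and not a bound site. In Cd79b no motif was matched.

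Counts on genes per library ran from 5862888 to 10796099 in untreated mice, from 5527108 to 7182346 after early ND and from 7849602 to 13924361 after late ND. The 4 adult hemoglobin genes took 31.6% to 61.7%, 38.3% to 64.1% and 14.9% to 29.3% of these counts, so levels are given as CPM, counts set to a common library size and scaled by TMM, a method that sets libraries level on the bulk of their genes. The untreated 2, late ND 2 and late ND 3 libraries were poor in the 18S ribosomal RNA gene Rn18s-rs5 (under 1000 CPM of the library total), and results are also given without them. Each member had at least 60 counts in each library and passed the filter on low counts in each comparison. Of the exon bases of Cd79a, Pax5 and Blk, 8.4%, 8.6% and 16.6% lie opposite another gene, whose reads cannot be told apart because the strand setting of the counting is not given in the sources used here.

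All 9 genes were detected in all 15 mice, and their order by level per length was nearly fixed from mouse to mouse. Length is that of all annotated exons of a gene merged. It can exceed that of the transcript present, so the order between genes depends on it. Per kilobase of exon, Cd79a was highest at a mean of 115 CPM per kb ± 33.1 (SD, n = 15 mice), followed by its partner Cd79b at 97.9 ± 28.7. Fcer2a followed at 28.8 ± 9.54, Ms4a1 at 20.02 ± 5.75 and Blk at 17.3 ± 5.31 CPM per kb. Pax5 had 12.8 ± 3.85, Bank1 9.89 ± 2.97 and Cr2 5.55 ± 1.74 CPM per kb, and Ebf1 was lowest at 2.36 ± 0.803. Although a mouse's level moved these genes up or down together, the step from one gene to the next was found in at least 14 of the 15 mice for 7 of the 8 neighbors. The exception was Ms4a1 over Blk, which held in 11 of 15 mice (mean log2 ratio 0.20 ± 0.23, SD). Cd79a exceeded Cd79b in 14 of 15 mice by a mean log2 ratio of 0.24 ± 0.14 (SD), and the drop from Cd79b to Fcer2a was the widest at 1.77 ± 0.12 (SD).

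**Figure D1:**
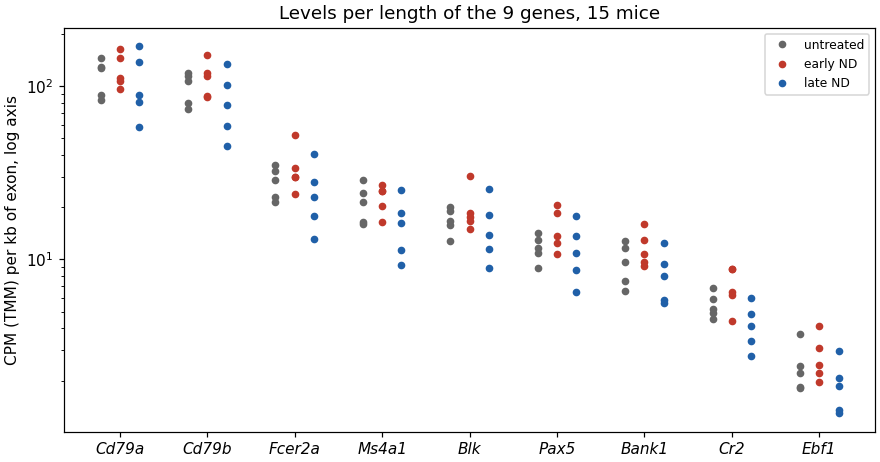
Level of each gene per kilobase of exon (CPM scaled by TMM, log axis), 1 point per mouse, colored by group (5 mice each). Genes are ordered by their mean, from Cd79a at 115 to Ebf1 at 2.36 CPM per kb, and the 3 groups overlap for each gene.

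The comparison of late with early ND set the antibody-treated groups side by side. They differ in the timing of surgery or, if late ND mice were bled before theirs, in surgery itself. On the TMM scale all 9 genes had lower means after late ND, by log2 fold changes from -0.68 (Cr2) to -0.18 (Cd79a) with a median of -0.43 against 0.01 over all genes, of which 48.2% were below 0, but 0 of 9 passed edgeR's quasi-likelihood test at an adjusted p of 0.05, where 4.98% of the 13315 genes tested passed; with library totals in place of TMM the 9 fold changes were above 0, from 0.18 to 0.69, while the median of all genes rose to 0.86, so that the members' median stayed below it by 0.40. Cr2 alone had an unadjusted p under 0.05, where 9.33% of all genes were lower at that level, and DESeq2's Wald test called Cr2 lower and none of the other 8, where it called 4.60% of 14162 genes lower. The groups overlapped for 9 of 9 members, and 2.93% of all genes were lower without overlap.

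The receptor chains and Ms4a1 showed the spread behind these means. Cd79a (ENSMUSG00000003379, chromosome 7 of GRCm39 from 24596740 to 24601622) had 136, 259, 209, 88.2 and 124 CPM in late ND mice 1 to 5, and 222, 249, 162, 169 and 146 CPM in early ND mice 1 to 5. Late ND 2 lay above every early ND mouse and 3 late ND mice lay below every one of them. The log2 fold change was -0.18 (standard error 0.27, 95% interval -0.77 to 0.41, adjusted p = 0.751, edgeR). Cd79b (ENSMUSG00000040592, chromosome 11 from 106202167 to 106205588) had 112, 191, 144, 64.6 and 84.0 CPM after late ND and 170, 217, 126, 163 and 123.5 CPM after early ND. The log2 fold change of Cd79b was -0.39 (standard error 0.27, 95% interval -0.97 to 0.20, adjusted p = 0.425, edgeR). Ms4a1 (ENSMUSG00000024673, chromosome 19 from 11227039 to 11243605) had 100, 156, 114, 57.3 and 69.7 CPM after late ND and 154.5, 166, 102, 153 and 125 CPM after early ND. For it, too, 3 of 5 late ND mice lay below every early ND mouse, with a log2 fold change of -0.45 (standard error 0.25, 95% interval -0.99 to 0.09, adjusted p = 0.294, edgeR).

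The transcription factors differed by similar amounts. Pax5 (ENSMUSG00000014030, chromosome 4 from 44524757 to 44710487), which holds the B cell fate, ranged from 57.2 to 157 CPM after late ND and from 94.9 to 183 CPM after early ND. The log2 fold change of Pax5 was -0.37 (95% interval -0.94 to 0.21, adjusted p = 0.443, edgeR). Ebf1 (ENSMUSG00000057098, chromosome 11 from 44508138 to 44898918), which acts before Pax5 in B cell development, ranged from 12.6 to 28.9 CPM after late ND and from 19.2 to 40.1 CPM after early ND. The log2 fold change of Ebf1 was -0.51 (95% interval -1.06 to 0.04, adjusted p = 0.247, edgeR). Ebf1 is also expressed in fat and stromal cells. Of 10 skin, fat and stroma genes 5 were tested, with a median log2 fold change of -0.80. With edgeR 0 of them were past the adjusted threshold, where 4.98% of all genes were. At an unadjusted p under 0.05, 2 were lower, where 9.33% of all genes were. These 2 were the stromal genes Col3a1, at 1.31 ± 1.25 CPM after late ND and 4.34 ± 2.44 CPM after early ND (SD, n = 5 each; log2 fold change -1.76, adjusted p = 0.0970, edgeR), and Dcn, at 4.40 ± 3.52 and 13.4 ± 9.95 CPM (log2 fold change -1.60, adjusted p = 0.123, edgeR). DESeq2 called Col3a1 lower, as it did 4.60% of 14162 genes. The summed level of the 10 genes, 251 to 1595 CPM after late ND and 206 to 1836 CPM after early ND, is mostly that of Scd1, a lipid enzyme gene with means of 540 and 509 CPM. The part of these genes in the Ebf1 level was not tested.

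Below the receptor, the kinase Blk (ENSMUSG00000014453, chromosome 14 from 63610285 to 63654587) ranged from 24.8 to 70.9 CPM after late ND and from 42.1 to 85.1 CPM after early ND, with a log2 fold change of -0.30 (95% interval -0.90 to 0.29, adjusted p = 0.551, edgeR). The scaffold gene Bank1 (ENSMUSG00000037922, chromosome 3 from 135759124 to 136031827) ranged from 42.0 to 93.6 CPM and from 69.0 to 121 CPM, with a log2 fold change of -0.47 (95% interval -0.97 to 0.03, adjusted p = 0.245, edgeR). Both intervals hold 0, and both also hold a decrease of 0.90 on the log2 scale, so a wide range of differences is left by 5 mice per group.

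Of the surface receptors of mature B cells, Cr2 and Fcer2a, Cr2 had the wider difference. Cr2 (ENSMUSG00000026616, chromosome 1 from 194819119 to 194859091) had 33.8, 49.3, 39.6, 22.9 and 27.8 CPM in late ND mice 1 to 5 and 72.6, 72.2, 36.1, 53.0 and 51.3 CPM in early ND mice 1 to 5. Late ND 1, 4 and 5 lay below every early ND mouse, and the overlap came from early ND 3 at 36.1 CPM. The log2 fold change was -0.68 (standard error 0.23, 95% interval -1.18 to -0.18, unadjusted p = 0.0116, adjusted p = 0.0993, edgeR). The call turned on the library and the tool, since the adjusted p was 0.0328 without early ND 3 (log2 fold change -0.81, edgeR), 0.0418 without late ND 2 (-0.88, edgeR) and 0.0419 with DESeq2 and all 10 mice (-0.70). Fcer2a (ENSMUSG00000005540, chromosome 8 from 3731737 to 3744183) had 71.2, 125, 87.1, 40.5 and 55.1 CPM after late ND and 104, 161.5, 73.9, 93.1 and 92.8 CPM after early ND. The log2 fold change of Fcer2a was -0.43 (standard error 0.29, 95% interval -1.06 to 0.19, adjusted p = 0.400, edgeR).

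**Figure D2:**
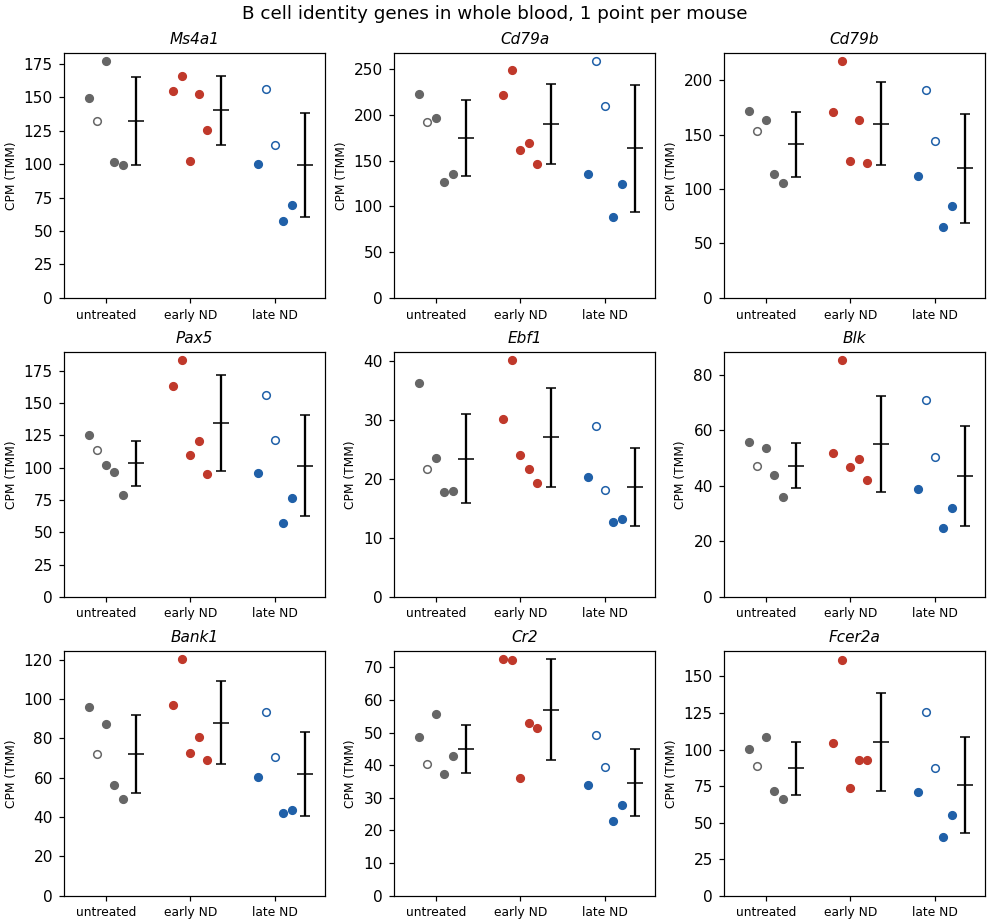
CPM (TMM) of each gene by group, 1 point per mouse in the order of its replicate number, with the mean and SD at the right of each group; open points are the 3 libraries poor in 18S sequence. The late ND points spread from below every other mouse (late ND 4, lowest of the 15 mice for 9 of 9 genes) to near the top (late ND 2).

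Relative to the mean, the spread among late ND mice was wider than in the other groups, which was not tested. The coefficient of variation of CPM was largest in the late ND group for 9 of 9 genes. It was 39.2% for Ms4a1 against 18.5% after early ND and 24.9% in untreated mice. For Ebf1 it was 35.5% against 31.0% and 32.3%. The SD in CPM was larger after early than after late ND for Cr2 (15.5 and 10.3), Ebf1 (8.37 and 6.61) and Fcer2a (33.4 and 32.7), and smaller for the other genes. Late ND 4 was the lowest of the 15 mice for 9 of 9 genes, and late ND 4 and 5 were the lowest pair for 9 of 9. Early ND 2 was the highest of the 15 for 6 of 9. Because the 9 genes follow each other from mouse to mouse, these counts are not 9 separate observations.

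The open points matter for this spread. Late ND 2 and 3, the late ND libraries poor in 18S sequence, had the 2 highest late ND levels for 8 of the 9 genes. Without late ND 2 alone, the median log2 fold change of the 9 was -0.70 and 8 of 9 genes were lower at an unadjusted p under 0.05, where 11.3% of 13316 genes were. Without early ND 2 the median was -0.26. In the 18S-rich libraries, with 3 late ND against 5 early ND mice, the log2 fold changes ran from -1.02 (Cr2) to -0.71 (Cd79a), with 9 of 9 at an unadjusted p under 0.05, where 23.9% of 13440 genes were at that level in either direction, 1481 of them lower. Of these 9, 0 passed after adjustment (smallest adjusted p = 0.0562, Cr2, edgeR), as did 0.0298% of all genes. For 7 of 9 the 3 late ND mice lay below all 5 early ND mice, where 6.16% of all genes were lower without overlap. The 2 libraries left out held the highest late ND levels for 8 of the 9 genes, so leaving them out by itself widens the difference. These counts are therefore no separate support for a lower level, and the shares over all genes do not allow for that choice. Cr2 averaged 28.2 CPM there after late ND and 57.1 CPM after early ND (95% interval of the log2 fold change -1.55 to -0.50), and Ms4a1 75.8 and 140 CPM (log2 fold change -0.89, 95% interval -1.38 to -0.40, adjusted p = 0.0628, edgeR). No early ND library was poor in 18S sequence, so no comparison could be made among those. Untreated 2, the other library poor in 18S sequence, had a summed member level of 862 CPM, the median of untreated mice (630 to 1006 CPM). Whether the library type, the mice or both account for the higher levels of late ND 2 and 3 was not tested and cannot be told apart.

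Against untreated mice the late ND group differed less. On the TMM scale 9 of 9 log2 fold changes were below 0, from -0.39 (Ms4a1) to -0.01 (Pax5), with a median of -0.20 against 0.00 over all genes, of which 49.6% were below 0, and 0 of 9 passed, or had an unadjusted p under 0.05, in edgeR's test, where of 13547 genes 2.01% passed as lower and 0.989% as higher and 8.28% were lower at that unadjusted level; with library totals all 9 were above 0 and 5 passed as higher, as did 55.2% of all genes, while the median of all genes was 0.91 and that of the members 0.84. The median was -0.47 without late ND 2, with 3 of 9 lower at an unadjusted p under 0.05 where 8.75% of all genes were, and -0.10 without late ND 4 or without untreated 1. DESeq2 called 0 of 9, and the groups overlapped for 9 of 9, where 2.98% of all genes were lower without overlap. Ms4a1 had 149.5, 132, 177, 102 and 99.5 CPM in untreated mice 1 to 5 (mean 132 ± 32.9, SD, n = 5) against a late ND mean of 99.5 ± 39.04 CPM (SD, n = 5). The late ND mice 4 and 5 lay below every untreated mouse, and the interval of the difference was -0.96 to 0.18 (adjusted p = 0.506, edgeR). Pax5 averaged 103 ± 17.6 and 102 ± 38.9 CPM (SD, n = 5 each), with an interval of -0.54 to 0.52. Its direction was not stable, since the log2 fold change was 0.05 with no filter on low counts. Cr2 was 37.2 to 55.8 CPM in untreated mice, with a median of 42.7, and its log2 fold change was -0.35 (95% interval -0.78 to 0.08, adjusted p = 0.412, edgeR). In the 18S-rich libraries, with 3 against 4 mice, 6 of 9 genes were lower at an unadjusted p under 0.05, where 7.36% of 13051 genes were, and 0 passed after adjustment, as did 0% of all genes (smallest adjusted p = 0.138, Cr2, edgeR). Cr2 was there the 1 member without overlap, lower in each of the 3 late ND mice, as were 6.56% of all genes. These counts, too, leave out the libraries with the 2 highest late ND levels for 8 of the 9 genes and are no separate support.

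Early ND and untreated mice were set side by side as the second reference, and they share the respective groups with the comparisons above. Here 9 of 9 log2 fold changes were above 0 on the TMM scale, from 0.09 (Ms4a1) to 0.38 (Pax5). Their median was 0.24 against 0.00 over all genes, of which 50.4% were below 0. With library totals all 9 were also above 0, from 0.19 to 0.49 with a median of 0.38 against 0.04 over all genes. On the TMM scale 0 of 9 passed or had an unadjusted p under 0.05 in edgeR's test, as 0% of 12151 genes passed and 2.11% were higher at that unadjusted level. DESeq2 called 0 of 9, and in the 18S-rich libraries 0 of 9 were higher at an unadjusted p under 0.05, as were 2.17% of all genes. Pax5 averaged 134 ± 37.3 CPM after early ND and 103 ± 17.6 CPM in untreated mice (SD, n = 5 each; 95% interval of the log2 fold change -0.04 to 0.80, adjusted p = 0.938, edgeR). Cr2 averaged 57.1 ± 15.5 and 45.0 ± 7.37 CPM (SD, n = 5 each), and its log2 fold change of 0.35 had an interval of -0.05 to 0.76. In both genes 2 early ND mice lay above every untreated mouse, and for Cr2 early ND 3, at 36.1 CPM, lay below every one of them. Without early ND 2, the mouse with the highest levels for 6 of the 9 genes, the members' median log2 fold change fell to 0.05.

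**Figure D3:**
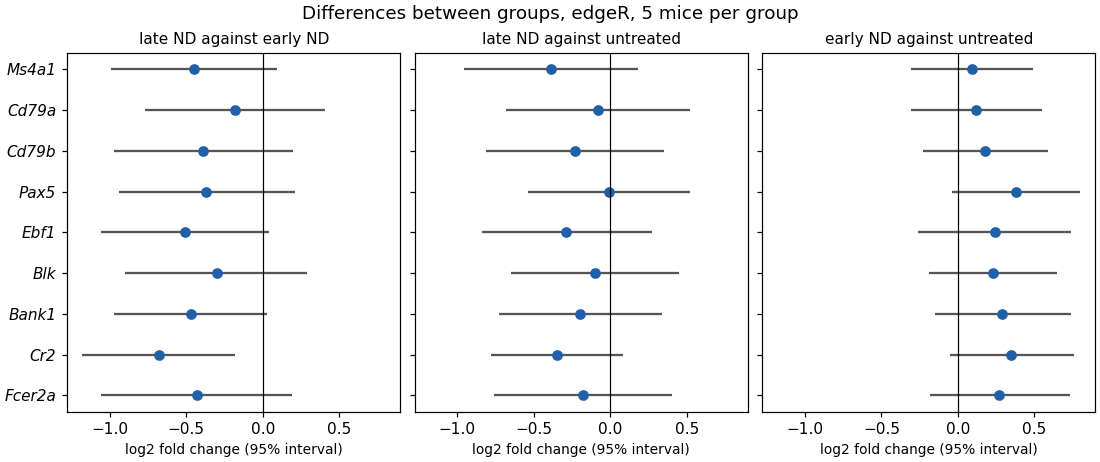
Log2 fold change of each gene (point) with its 95% interval (line) from edgeR, 5 mice per group, in the 3 comparisons. The points lie below 0 in both comparisons of late ND mice and above 0 for early ND against untreated mice, and each interval crosses 0 except that of Cr2 in late against early ND (-1.18 to -0.18).

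Ratios of 2 members within a library do not depend on scaling, and 4 were tested in each of the 3 comparisons by two-sided exact permutation tests, adjusted over the 12 tests. The smallest p that 5 mice against 5 allow is 0.00794, which adjusts to 0.0952 when 1 ratio alone reaches it, so no single ratio could pass by itself, and none did. The log2 ratio of Cd79a to Cd79b was 0.45 ± 0.11 (SD, n = 5) after late ND, 0.25 ± 0.13 after early ND and 0.30 ± 0.09 in untreated mice. Late ND was above early ND by 0.21 (exact p = 0.0397, adjusted to 0.190) and above untreated mice by 0.15 (exact p = 0.0476, adjusted to 0.190). The ratio of Fcer2a to Ms4a1 was -0.41 ± 0.09 (SD, n = 5) after late ND and -0.59 ± 0.07 in untreated mice, with a difference of 0.18 and each late ND mouse above each untreated mouse (exact p = 0.00794, adjusted to 0.0952). After early ND this ratio was more variable, at -0.44 ± 0.25 (SD, n = 5). Cr2 to Ms4a1 differed by -0.16 between late and early ND (exact p = 0.159, adjusted to 0.317), and Pax5 to Ebf1 by 0.11 (exact p = 0.397, adjusted to 0.529). The lower ratio of Cr2 to Ms4a1 was thus within the spread between mice.

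The 9 genes followed each other closely from mouse to mouse. After the group means were removed, Pearson's r over the 15 mice between the log2 CPM of a gene and the mean of the other 8 was 0.986 for Cd79b, 0.970 for Fcer2a, 0.967 for Bank1 and 0.960 for Cd79a, and lowest for Ebf1 (0.881) and Cr2 (0.872). These are descriptions over libraries that share scaling factors. By the same measure the non-member genes most like the members, out of 13348, were Ighm (0.987), Ighd (0.978), Iglv3 (0.976), H2-Aa (0.975) and Tctn1 (0.967). Ighm and Ighd encode the heavy chains of the IgM and IgD carried by naive B cells, Iglv3 a lambda light chain variable segment, and H2-Aa a chain of an MHC class II molecule. Ighm averaged 436 ± 148 CPM after late ND, 547 ± 120 after early ND and 485 ± 91.8 in untreated mice (SD, n = 5 each), and late against early ND gave a log2 fold change of -0.29 (adjusted p = 0.517, edgeR). For Ighd it was -0.35 (adjusted p = 0.533, edgeR), and 0 of the 3 immunoglobulin constant genes passed in any comparison with edgeR or DESeq2, or had an unadjusted p under 0.05.

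Further B cell lists, written with earlier results of these data known, were mixed. Of the 19 receptor signaling genes tested, 0 passed in late against early ND with edgeR, with a median log2 fold change of -0.03. At an unadjusted p under 0.05, where 14.4% of all genes were higher and 9.33% lower, 5 were higher and 1 lower. DESeq2 called 3 higher and 1 lower, and of all 14162 genes 797 higher and 652 lower. Ptprc and Syk, the most abundant of the list and shared with other white blood cells, had log2 fold changes of 0.30 and 0.35 (adjusted p = 0.336 and 0.153, edgeR). Against untreated mice, where 0.989% of all genes passed as higher, 1 of 19 passed. It was Fcgr2b, an inhibitory Fc receptor that myeloid cells also carry, at 84.2 ± 19.0 CPM after late ND and 50 ± 9.97 CPM in untreated mice (SD, n = 5 each; log2 fold change 0.75, standard error 0.17, adjusted p = 0.0403, edgeR), higher without overlap as were 2.50% of all genes. Of the 15 transcription factors 0 passed in late against early ND with edgeR, while DESeq2 called 1, Spi1, higher. At an unadjusted p under 0.05 (edgeR), where 14.4% of all genes were higher and 9.33% lower, 2 were higher and 2 lower. Ets1 and Spi1, the 2 with the highest mean CPM, had log2 fold changes of -0.36 and 0.79 (adjusted p = 0.162 and 0.0780, edgeR), and Spi1 is also a myeloid factor. Over all genes, 48.2% were below 0 and 9.33% lower at an unadjusted p under 0.05 (edgeR). Among the 16 surface and survival genes 13 were below 0, 0 passed by either tool and 1 was lower at that unadjusted level. Cd37, a tetraspanin of white blood cells and among the most abundant of them, had a log2 fold change of 0.06 (adjusted p = 0.879, edgeR). In early ND against untreated mice 0 genes of any of these 3 lists passed with edgeR or DESeq2. At an unadjusted p under 0.05 (edgeR), where 2.11% of all genes were higher, 0, 4 and 2 genes were higher and 0 lower.

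Genes of other B cell stages were sparse or shared with other cells. Of the immature and transitional list, 4 of 9 genes were tested, and Cd24a, which immature red cells also express, was lower in both comparisons of late ND mice. It had 262 ± 51.8 CPM after late ND, 843 ± 456 after early ND and 941 ± 527 in untreated mice (SD, n = 5 each), with log2 fold changes of -1.66 and -1.84 (adjusted p = 0.0225 and 0.0242, edgeR). DESeq2 also called Cd93 higher in both. The hemoglobin genes moved with it, by median log2 fold changes of -2.05 and -2.40, and their part in the Cd24a level was not tested. Of the plasma cell list 5 of 8 were tested, and Jchain, which joins the units of secreted IgM and IgA, was higher at 9.87 ± 3.79 CPM after late ND than at 3.39 ± 2.23 CPM after early ND (SD, n = 5 each; log2 fold change 1.61, standard error 0.41, adjusted p = 0.0429, edgeR). DESeq2 called Jchain and also Xbp1, a factor of antibody secretion that other cells share, higher (Xbp1 log2 fold change 0.81, adjusted p = 0.0775, edgeR), while Prdm1 and Irf4, factors of plasma cell formation, had log2 fold changes of 0.06 and -0.03 (adjusted p = 0.951 and 0.947, edgeR). Untreated mice had 6.91 ± 3.49 CPM of Jchain (SD, n = 5), between both ND groups, and late ND against untreated mice did not pass (log2 fold change 0.56, adjusted p = 0.462, edgeR). Nor did early ND against untreated mice, where Jchain was lower (log2 fold change -1.03, unadjusted p = 0.0428, adjusted p = 0.938, edgeR). Of the 5 germinal center and 6 marginal zone and B1 genes tested, 0 passed in late against early ND with edgeR. At an unadjusted p under 0.05, 3 germinal center genes were higher and 1 marginal zone and B1 gene was lower. Over all genes 14.4% were higher and 9.33% lower at that level. DESeq2 called 2 germinal center genes higher, Bcl6 and S1pr2, and of all 14162 genes 797. Bcl6 and Fas, the most abundant of the germinal center list and not particular to B cells, had log2 fold changes of 0.84 and 0.65 (adjusted p = 0.0522 and 0.104, edgeR), and Cd9 and Plac8 of the marginal zone and B1 list -0.39 and 0.21 (adjusted p = 0.291 and 0.784, edgeR).

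Beside the members, genes of other blood cells moved between the same mice. The summed CPM of the 9 members was 410 to 1131 after late ND (median 668), 754 to 1295 after early ND (median 904) and 630 to 1006 in untreated mice (median 862). The 7 monocyte genes summed to 3251 to 4595, 1529 to 4047 and 1842 to 2760 CPM in the same order, and the 11 neutrophil genes to 5904 to 15760, 2506 to 7695 and 4648 to 12100 CPM. Late ND 4, the mouse with the lowest member levels, had the highest sums of both myeloid lists. Late ND 5, which formed the lowest pair with it for 9 of 9 members, did not. Its monocyte and neutrophil sums were 3539 and 7845 CPM, inside the late ND ranges. The 10 T cell genes summed to 286 to 342, 270 to 462 and 364 to 534 CPM. In late ND against untreated mice 10 of 10 were below 0, where 49.6% of all genes were. At an unadjusted p under 0.05 (edgeR) 9 were lower, where 8.28% of all genes were, and 1 passed, where 2.01% passed as lower. Against early ND 10 of 10 were below 0 and 2 lower at that unadjusted level, where 9.33% of all genes were. A ratio to this list therefore also moves with the T cell genes. Within a library the members had 1.30 to 3.31 counts per T cell list count after late ND (mean 2.25 ± 0.78, SD, n = 5), 1.955 to 2.94 after early ND (2.47 ± 0.43) and 1.61 to 2.33 in untreated mice (1.89 ± 0.31), and the 3 ranges overlapped. The part of the myeloid genes in the member levels was not tested. The 7 genes of plasmacytoid dendritic cells, which also express some B cell genes, summed to 65.4 to 79.1 CPM after late ND, 62.3 to 80.8 after early ND and 56.8 to 74.4 in untreated mice. The sum is mostly that of Tcf4, Runx2 and Bst2, with means of 25.8, 18.7 and 17.2 CPM, while Siglech averaged 1.59 CPM. In late against early ND 5 of the 7 were tested and 0 passed (edgeR). At an unadjusted p under 0.05, 2 were higher, Runx2 and Siglech, where 14.4% of all genes were, and 0 lower.

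**Figure D4:**
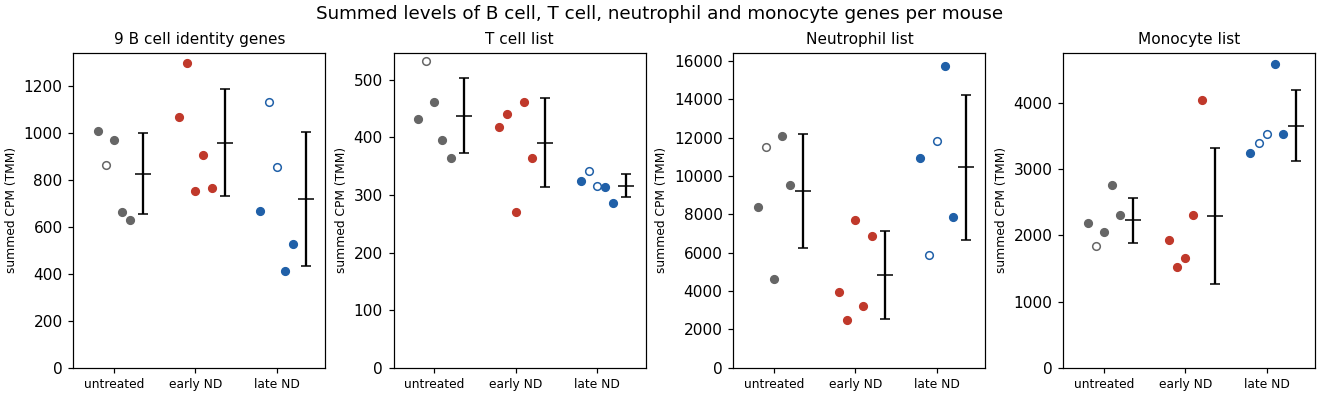
Summed CPM (TMM) of the 9 B cell identity genes and of the T cell, neutrophil and monocyte lists by group, 1 point per mouse with the mean and SD at the right; open points are the libraries poor in 18S sequence. Late ND mice spread from 410 to 1131 CPM for the B cell genes but only from 286 to 342 CPM for the T cell list.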

How the data were processed

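RNA from the blood of 15 mice had been sequenced, and groups and replicate numbers come from the labels. Per the submitters' notes, the authors used STAR 2.7.9 to align read pairs to GRCm39, sorted them with SAMtools 1.7 and deposited raw counts of read pairs per gene from HTSeq 0.13.5, without normalization. The annotation release and strand setting are not given in the sources used here. Counters of unassigned pairs were left out, of which those in no gene made up 12.6% to 30.8% of all entries of a library. Of 55416 identifiers, 54749 matched GENCODE on GRCm39, which gave symbols, positions, exon lengths and promoter windows, and 152 of 153 listed genes were found.

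Levels are counts divided by library size times the TMM factor over all 15 libraries. Each comparison took its own 2 groups, with the filterByExpr filter and TMM scaling, and was tested with edgeR 4.0.16 (quasi-likelihood, Benjamini-Hochberg over all genes tested, threshold 0.05) in R 4.3.3. Standard errors come from the F statistic. DESeq2 1.42.0, other scalings and filters, the libraries rich in 18S and each library left out were alternatives. Log2 CPM used a prior count of 2, and ratios added 0.5 counts. The scripts were tested on simulated data. P-values measure the spread between 5 mice per group.

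The members and lists were chosen with earlier results of these data known. Text names the 9 members, list genes past the adjusted threshold or else the 2 most abundant, and the 5 genes most like the members. Some items that this rule names are not reported here. Other genes were named after their values were seen.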

Additional observations from a re-analysis of the deposited data

Results flagged for a closer look

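Of 39 sets of 5 values (9 genes and 4 ratios in 3 groups), 1 stood out by the distance of its highest or lowest mouse from the others, where chance gives about 1 in 20 such sets. Blk in early ND 2 was at 85.1 CPM, and the next highest early ND mouse at 51.8 CPM, a gap of 0.774 of the group's range.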

How the results depend on the processing

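The count of members that passed in late against early ND was 0 and became 1 with DESeq2's Wald test (Cr2) and 1 with the replicate block (Ebf1, log2 fold change -0.52, adjusted p = 0.0381, edgeR), and with each mouse left out in turn it ranged from 0 to 1 (1 without early ND 3 or late ND 2). For late ND against untreated mice it was 0, 5 with library totals and 0 under all other settings, and for early ND against untreated mice it was 0 throughout. Same-numbered mice are different animals, and the main tests did not use the numbers. Their deviations correlated from -0.18 to 0.46 in late against early ND, with 1 of 5 mice closest to its own number. Late ND against untreated mice gave 0.03 to 0.58, with 3 of 5, and early ND against untreated mice -0.24 to 0.08. The block changed no other call. With it, 7 of 9 members were lower in late against early ND at an unadjusted p under 0.05 (edgeR), as were 1221 of 13315 genes. In the main fit 1 of 9 members was. Against untreated mice 2 of 9 members were lower at that level with the block, as were 1257 of 13547 genes. Library totals in place of TMM turned the log2 fold changes of late against early ND to 0.45 (Ms4a1), 0.69 (Cd79a), 0.51 (Cd79b), 0.49 (Pax5), 0.33 (Ebf1), 0.58 (Blk), 0.39 (Bank1), 0.18 (Cr2) and 0.46 (Fcer2a), and those of late ND against untreated mice to 0.64, 0.94, 0.78, 0.98, 0.74, 0.92, 0.84, 0.65 and 0.84 in the same order, by construction of a scaling that moved the median of all genes to 0.86 and 0.91. Over all genes, 333 were higher and 330 lower in late against early ND, 8923 and 137 with library totals, 201 and 338 with DESeq2 size factors, 230 and 343 without hemoglobin and 18S genes, 797 and 652 with DESeq2's Wald test, 886 and 396 with no filter, 4 and 0 in 18S-rich libraries, and 36 to 1057 and 106 to 553 with a mouse left out. Against untreated mice these were 134 and 272, 7484 and 90 with library totals, 268 and 540 with the Wald test, 230 and 377 with the block, 0 and 0 in 18S-rich libraries, and 0 to 184 and 0 to 409 with a mouse left out. With no filter on low counts Pax5 in late ND against untreated mice was 0.05, and with a mouse left out it ranged from -0.25 to 0.12, Cd79a from -0.34 to 0.05 and Blk from -0.38 to 0.02. In early ND against untreated mice Ms4a1 ranged from 0.00 to 0.21 and Cd79a from 0.00 to 0.21. The cause was not tested. The ratio of Fcer2a to Ms4a1 differed by 0.04 between late and early ND, by 0.00 among libraries rich in 18S and from -0.03 to 0.14 with a mouse left out. In late ND against untreated mice it ranged from 0.15 to 0.20 and Cd79a to Cd79b from 0.12 to 0.20, each passing (exact permutation test, adjusted p = 0.0476) without late ND 1. Ebf1, with as few as 60 counts in a library, is the member most limited by depth.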
